A study of Rickenella mellea with 14 samples.

Results

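Caps of mature fruiting bodies of the mushroom Rickenella mellea were compared with stipes of mature fruiting bodies, using 3 cap libraries (replicates 1, 2 and 3) and 2 stipe libraries (replicates 1 and 4). These 5 libraries were taken by their tissue labels from a series of 14, in which polyadenylated RNA of 17139 gene models was counted. The other 9 libraries were 3 each of vegetative mycelium, primordium and young fruiting body. Strain SZMC22713 is the labelled strain of every library. Mycelium was grown on Fries agar, whereas all 11 libraries of the fruiting stages came from material picked in the field. Mature fruiting bodies had an opened cap and stood 20 to 32 mm tall, young fruiting bodies were 5 to 15 mm tall, and primordia were 1 mm tall at stage 1 (replicate 2) and 2 to 3 mm at stage 2 (replicates 1 and 3). No treatment separated cap from stipe, and both were run on the same flow cell. Flow cell, like growth in culture, cannot be told apart from stage where mycelium is set against the other stages. The series text calls the samples biological replicates without saying how many fruiting bodies each held, and the p-values below reflect only how these samples vary.

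Rickenella mellea is a small gilled mushroom that lives among mosses. The cap of a mushroom carries the gills, whose surface layer holds the basidia, the cells in which nuclei fuse, meiosis takes place and spores form. The stipe lifts the cap into the air, mainly through elongation of hyphal cells that are already present. The deposited files give no product name for a gene model and no marker genes, so the tissue labels could not be checked against defining markers, and models are named by the number in their identifier. Levels below are CPM, counts scaled to a common library size after TMM correction, unless CPM of the library total are named. In RNA from whole tissue, fewer cells of a type and less RNA per cell cannot be told apart.

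The libraries held 54.6, 32.8 and 38.6 (in units of 1e6) reads in caps and 35.3 and 21.5 in stipes, and at least 99.3% of the reads of each were unique to 1 gene model. Libraries of one tissue resembled each other more than libraries of different tissues. Across 15559 tested genes, Spearman's correlation of log2 CPM was 0.861 to 0.911 between a cap and a stipe, 0.942 to 0.953 between caps and 0.972 between stipes, given as a description across genes that are not independent replicates. At least 2-fold differences were seen in 30.5% to 41.8% of tested genes between a cap and a stipe, in 15.9% to 18.7% between 2 caps and in 11.4% between the 2 stipes. Cap 1 and stipe 1 were the most alike of the 6 pairs across tissues. The labels do not say whether they came from the same fruiting bodies, and all 5 libraries were treated as independent. Cap 3 and stipe 4 differed in the most genes at 2-fold (41.8%). At 4-fold, cap 2 and stipe 4 did so (16.3%, against 15.1% for cap 3 and stipe 4), and their correlation was the lowest (0.861).

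**Figure D1:**
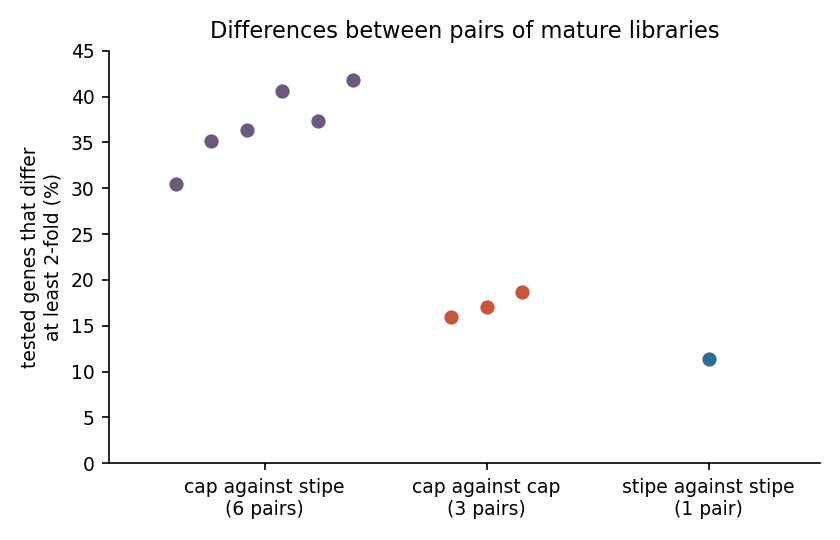
Share of the tested genes that differed at least 2-fold between 2 libraries, in percent, 1 point per pair of libraries. The 6 pairs of a cap with a stipe lie at 30.5% to 41.8%, above the 3 pairs of caps at 15.9% to 18.7% and the pair of stipes at 11.4%.

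Of the 15559 genes tested, 1954 (12.6%) were called, meaning at least a 2-fold difference and an adjusted p under 0.05 in edgeR's quasi-likelihood test with Benjamini-Hochberg adjustment. Higher in cap were 1113 genes (7.15% of those tested) and higher in stipe 841 (5.41%). The median log2 difference of all tested genes, cap minus stipe, was 0.00, with quartiles of -0.64 and 0.71. A further 2158 genes (13.9%) had a 95% interval of the difference that lay inside 2-fold in both directions. The other 11447 genes (73.6%) were neither called nor held inside 2-fold, so for most genes these 5 libraries do not settle whether the tissues differ that much. With library size alone as the scaling, 1330 genes were higher in cap and 578 in stipe, and the median of all genes was 0.20. Leaving out 1 library changed the counts by more than 1.5 times in 3 cases: 847 genes were called without stipe 1 (454 higher in cap, 393 in stipe), 278 without stipe 4 (76 and 202) and 1293 without cap 3 (807 and 486). Without cap 2 the stipe count alone moved that far, with 496 genes higher in stipe.

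Most of the called differences were a matter of degree. Among genes higher in cap, 626 differed 2-fold to 4-fold, 316 between 4-fold and 8-fold, 117 between 8-fold and 16-fold and 54 by 16-fold or more. Among genes higher in stipe the counts were 526, 192, 69 and 54. Even in the class of at least 16-fold, the lower tissue usually kept reads: 41 of the 54 cap genes had at least 1 CPM of the library total in both stipes, and 36 of the 54 stipe genes had at least 1 CPM in all 3 caps. Under 1 CPM in every library of the lower tissue were 7 of these cap genes and 14 of these stipe genes. All 1113 cap genes and 830 of the 841 stipe genes had no overlap between the 3 cap and 2 stipe libraries, which was true of 55.1% of all tested genes, and lack of overlap is close to what the call itself asks.

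**Figure D2:**
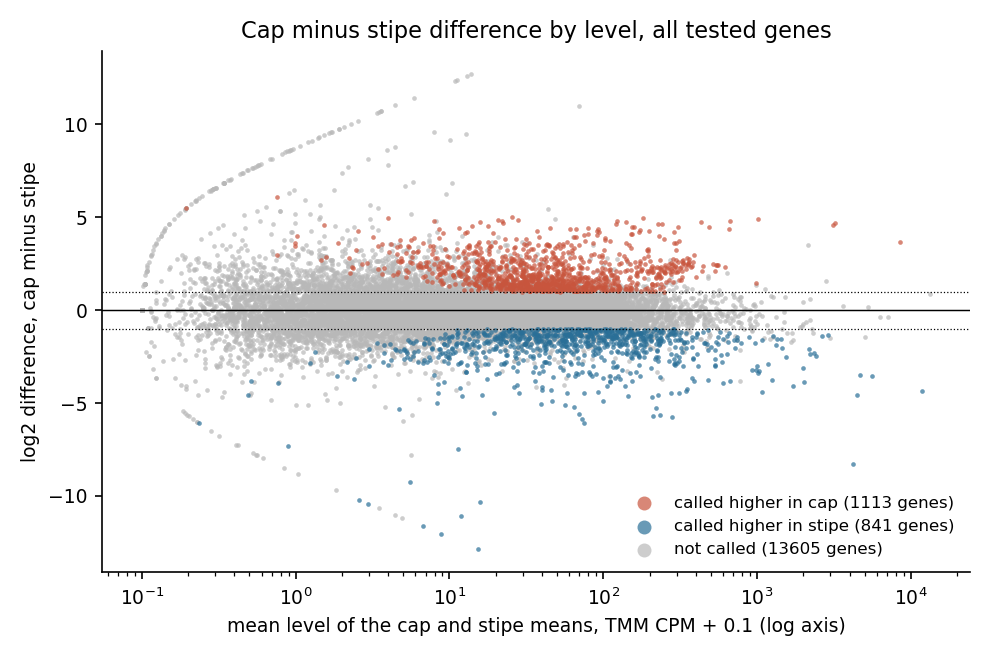
Log2 difference, cap minus stipe, of each tested gene against the mean of its cap and stipe levels in TMM CPM plus 0.1 (log axis). Red points are the 1113 genes called higher in cap, blue points the 841 called higher in stipe, grey points genes not called, and dotted lines mark 2-fold. Above a mean of 1000 CPM the called genes are mainly blue.

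The direction of the calls differed with the level of the gene. Among genes with a mean of 10 to 100 CPM over the 5 libraries, 766 were higher in cap and 453 in stipe, of 7345. Between 100 and 1000 CPM the counts were 249 and 268 of 1739. Above 1000 CPM, 5 genes were higher in cap and 21 in stipe, of 66. Between 1 and 10 CPM, 90 were higher in cap and 93 in stipe, of 4796, and under 1 CPM 3 and 6 of 1613, with median standard errors of 0.81 and 1.37. With gene models ranked by length in 5 equal bins, 9.55% of the bin of the shortest genes and 16.5% of that of the longest were called, at median standard errors of 0.86 and 0.35.

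The 100 and the 1000 most abundant genes took a smaller share of the reads in every cap than in either stipe. The 100 most abundant genes of a library took 21.3 ± 0.749% of the reads in caps and 28.4 ± 2.06% in stipes (SD, n = 3 and 2; exact permutation test, two-sided, p = 0.1). The 1000 most abundant took 51.7 ± 1.39% in caps and 58.7 ± 1.75% in stipes (exact permutation p = 0.1). For both measures, 0.1 is the smallest p that 10 assignments of 5 libraries allow, so no call at 0.05 is possible. The 10 most abundant genes took 9.32 ± 0.840% in caps and 10.2 ± 2.93% in stipes, which overlapped (exact permutation p = 0.8). At an equal depth of 21.5 (in units of 1e6) reads, 15416 ± 109 gene models were expected to have a read in caps and 15570 ± 115 in stipes (exact permutation p = 0.3), and the ranges of the 2 tissues overlapped. TMM factors were 1.26, 1.25 and 1.18 in caps and 1.10 and 1.04 in stipes, so a share of reads and a scaled level are not the same measure here.

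The 1113 cap genes together took 19.8%, 20.1% and 19.3% of the reads of the 3 caps and 4.35% and 3.01% of the reads of the 2 stipes. The 841 stipe genes took 7.14%, 6.66% and 6.37% of the reads of the caps and 25.3% and 30.4% of those of the stipes. Since these genes were chosen for that difference, the shares describe its size and are no test of it, and they move with how many genes are called. The mean share of cap reads in cap genes was 19.7%, but 12.7% with genes called without stipe 1 and 2.52% without stipe 4. The mean share of stipe reads in stipe genes was 27.8%, but 17.9% without stipe 1 and 11.8% without stipe 4. The stipe share was carried by fewer genes: 50% of the reads in cap genes fell on 92, 86 and 100 genes in caps 1, 2 and 3, while 50% of the reads in stipe genes fell on 43 genes in stipe 1 and on 30 in stipe 4. The 10 leading cap genes of each cap held 26.7%, 26.4% and 17.2% of the cap gene reads, and the 10 leading stipe genes of each stipe held 24.8% and 34.9% of the stipe gene reads. The 95% Wilson intervals of the class shares reach at most 0.0195 percentage points to either side and cover counting error only.

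The cap genes with the largest differences were high in all 3 caps. Gene model 834246 had 56.1, 61.0 and 30.8 CPM in caps and 1.99 and 1.07 CPM in stipes, which is 5.00 ± 0.68 on the log2 scale, cap minus stipe (SE; edgeR adjusted p = 0.0013). It had 123, 73 and 292 reads in the young fruiting bodies and 0, 1 and 0 in primordia, and 4, 4 and 5 in mycelia. Every cap lay above every other library of the series for this gene. Gene model 792307 had 405, 435 and 216 CPM in caps and 14.2 and 8.01 CPM in stipes, or 4.99 ± 0.60 in log2 (SE; adjusted p = 0.000825 in edgeR). Both genes were called in every alternative run, and in both cap 3 was the lowest of the caps.

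The stipe genes with the largest fitted differences behaved otherwise, with nearly all of their stipe reads in stipe 1. Gene model 735180 had no read in any cap, 2370 reads in stipe 1 and 1 read in stipe 4. It also varied in young fruiting bodies, with 3244, 239 and 2 reads in replicates 1, 2 and 3. Gene model 701590 had 0, 1 and 0 reads in caps and 1817 and 3 reads in stipes, and 1561, 144 and 0 reads in the young fruiting bodies. For both genes stipe 4 was as near to 0 as the caps were. Their adjusted p of 0.047 and 0.0292 in edgeR became 0.0802 to 0.808 and 0.0556 to 0.636 when 1 of the 5 libraries was left out, so neither call held in any of these cases, and no fold is given for them.

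**Figure D3:**
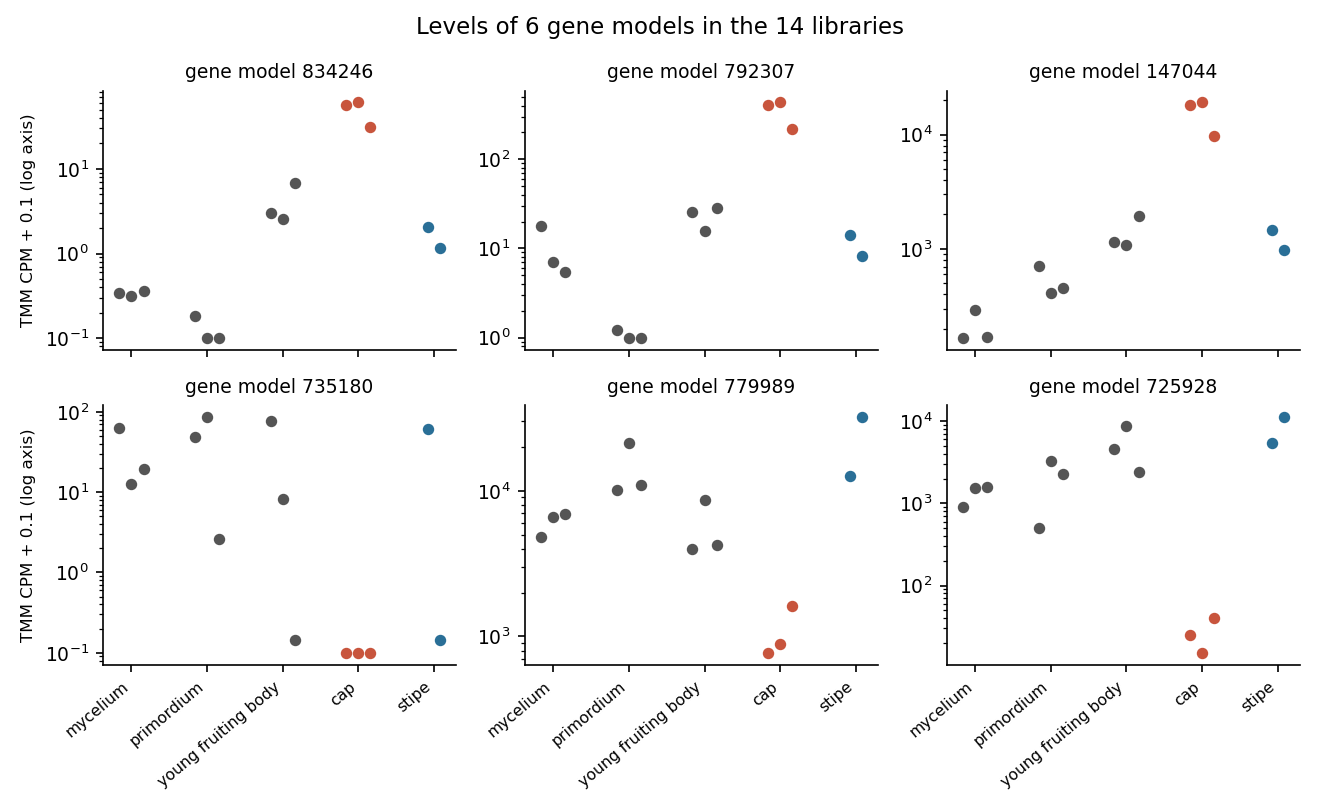
Level of 6 gene models in the 14 libraries, in TMM CPM plus 0.1 on a log axis, 1 point per library, with caps in red, stipes in blue and the other stages in grey. Models 834246, 792307 and 147044 are high in all 3 caps, 779989 and 725928 are low in all 3 caps, and 735180 is near 0 in the caps, in stipe 4 and in young fruiting body 3.

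Other genes were singled out after their values were seen. Gene model 147044, the most abundant cap gene, reached 18220, 19130 and 9780 CPM in caps and 1464 and 987.9 CPM in stipes, or 3.68 ± 0.56 in log2 (SE; adjusted p = 0.00231 in edgeR). All caps lay above all other libraries for this gene, and young fruiting bodies, at 1140, 1076 and 1942 CPM, overlapped with the stipes. Without stipe 4 its adjusted p was 0.0518. Gene model 779989, the most abundant stipe gene, had 772.5, 889.4 and 1615 CPM in caps and 12630 and 32190 CPM in stipes, or -4.36 ± 0.63 in log2 (SE; adjusted p = 0.00179 in edgeR). Primordia held it at 10150 to 21390 CPM and mycelia at 4817 to 6965 CPM, so the caps were the lowest libraries of the series for this gene. Gene model 725928 had 24.8, 15.1 and 39.7 CPM in caps and 5407 and 11280 CPM in stipes, or -8.30 ± 0.92 in log2 (SE; adjusted p = 0.000517 in edgeR). It stood at 502.6 to 8719 CPM in the 9 libraries of the other stages, and so was abundant everywhere except in the mature cap.

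No gene was restricted to one tissue at the level asked. At least 20 CPM of the library total in every library of one tissue and under 1 CPM in every library of the other was met by 0 genes for cap and 0 for stipe. With 10 CPM in place of 20, 2 genes qualified for cap (779625 and 893150) and 2 for stipe (793191 and 843759), named after their values were seen. Gene model 893150 had 18.4, 16.6 and 10.3 CPM in caps and 0.619 and 0.445 CPM in stipes, with no read in any primordium and 0.459 to 0.587 CPM in young fruiting bodies. Gene model 843759 had 0.625, 0.415 and 0.44 CPM in caps and 12.8 and 18.8 CPM in stipes, and 15.3 to 21.5 CPM in primordia. Of these 4 genes, 893150 stood at or above 1 CPM in no library but the caps. After TMM scaling, 843759 was as high in primordia as in stipes. By CPM of the library total, 843759 had 9.72 to 14.07 in primordia and 14.05 and 19.65 in stipes. When 1 library was left out, 843759 kept its call each time, while the call of 893150 was lost without stipe 4 (edgeR adjusted p = 0.0511), that of 779625 without either stipe and that of 793191 without stipe 4 or any 1 cap.

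The young fruiting body and primordium libraries are no side of the cap against stipe difference, and show how these genes stood earlier, but they entered the same fit and so its scaling, filter and spread. In the cap genes the median log2 CPM exceeded that of all tested genes by 0.82 to 1.02 in mycelia, by 0.32 to 0.51 in primordia and by 1.20 to 1.75 in young fruiting bodies. In the mature tissues it did so by 1.94 to 2.07 in caps and by 0.18 to 0.41 in stipes. In the stipe genes the excess was 0.99 to 1.16 in mycelia, 2.34 to 2.77 in primordia and 1.77 to 2.17 in young fruiting bodies. It was 0.73 to 0.90 in the caps and 2.64 to 2.89 in the stipes. Primordia lay nearer to the stipes than to the caps in both classes of genes. The shares of reads ran the same way: cap genes took 2.55% to 3.98% of primordium reads and 11.3% to 15.3% of young fruiting body reads, and stipe genes took 17.0% to 19.9% and 11.6% to 16.2%.

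**Figure D4:**
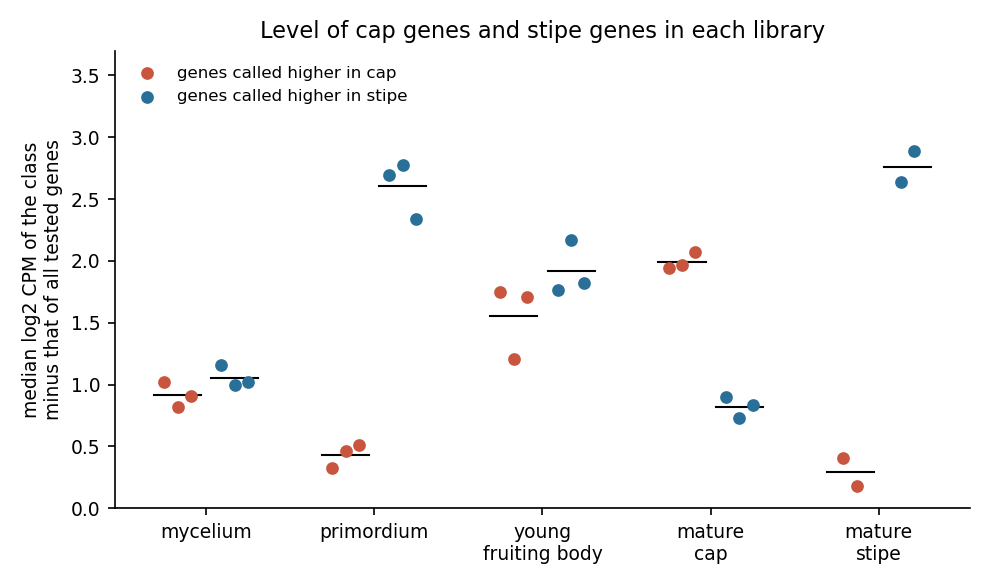
Median log2 CPM of the genes called higher in cap (red) and higher in stipe (blue) minus the median of all tested genes, 1 point per library, with the mean of each group as a line. Cap genes are lowest in primordia and stipes and highest in caps, and stipe genes are highest in primordia and stipes, with young fruiting bodies in between.

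Between primordium and young fruiting body, 64.8% of the cap genes rose and 4.31% fell, where 20.5% of all tested genes rose and 13.1% fell (same edgeR thresholds). Of the stipe genes, 12.4% rose and 32.0% fell. The median log2 change, young fruiting body minus primordium, was 1.57 in cap genes and -0.58 in stipe genes, against 0.24 in all tested genes. Relative to all tested genes, these medians were 1.33 and -0.82, and over 18 alternatives they stayed at 1.08 to 2.15 in cap genes and at -0.90 to -0.40 in stipe genes. The share of cap genes that rose was similar at all sizes of the cap against stipe difference. It was 61.3%, 73.4%, 59.0% and 66.7% in the classes of 2-fold, 4-fold, 8-fold and 16-fold. The median log2 change of these classes was 1.26, 2.38, 2.04 and 2.73, lowest in the 2-fold class. Of stipe genes of at least 16-fold, 14.8% rose and 20.4% fell (8 and 11 of 54), with a median log2 change of -1.08. In the 2-fold, 4-fold and 8-fold classes, medians of stipe genes were -0.56, -0.44 and -0.51. There 9.7%, 17.2% and 17.4% rose and 33.3%, 31.8% and 31.9% fell. In an alternative added after seeing the data, genes were called in the 5 mature libraries alone and the step was tested in a separate fit of the 6 primordium and young fruiting body libraries. Then 42.9% of 1610 cap genes rose and 3.85% fell, and 7.84% of 1225 stipe genes rose and 22.9% fell, where 14.2% of all tested genes rose and 11.8% fell. The shares of cap and stipe genes are over all genes called, including any not tested for the step. Those of all tested genes are over the 14205 genes tested for the step. The balance of stipe genes depended on the scaling. Library size alone gave 21.3% risen and 21.3% fallen, with the median of all tested genes shifted to 0.78. Limma-trend gave 22.6% and 21.0% on log2(RPKM + 0.1), and 23.4% and 18.8% on log2(RPKM + 1). Relative to all tested genes, the median of stipe genes in these settings was -0.85, -0.90 and -0.41, in that order. The share of cap genes that fell was 9.21% without stipe 4, and the share of stipe genes that rose was 8.14% without stipe 1.

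On a scale for each gene where its mean log2 CPM in stipes is 0 and in caps 1, the median cap gene stood at 0.41 in mycelium, -0.08 in primordium and 0.74 in young fruiting body. The median stipe gene stood at 0.86 in mycelium, 0.22 in primordium and 0.51 in young fruiting body. Replicates differed in this, with cap genes at 0.86, 0.54 and 0.87 and stipe genes at 0.61, 0.39 and 0.55 in young fruiting bodies 1, 2 and 3, so replicate 2 was the most stipe-like in both. The medians of cap genes and stipe genes in the young fruiting body were 0.62 and 0.62 with library size alone as the scaling, and 0.41 and 0.45 without stipe 4, so that cap genes did not stand further towards the cap under these alternatives. Young fruiting bodies exceeded the cap level in 340 cap genes (30.5%), and exceeded the stipe level in 55 stipe genes (6.54%). The ends of this scale are the tissue means that the genes were chosen by, which favours other stages lying between them. These counts are a description, with no share of all tested genes to set beside them.

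The choice of the genes largely fixes how many are highest in the tissue they were called for and lowest in the other. Only their standing in the 3 other stages is described, but the choice shapes these shares too. No cap gene was highest in stipe or lowest in cap, and no stipe gene was highest in cap or lowest in stipe. The shares of all tested genes are therefore not a like-for-like baseline. Of the 1113 cap genes, 27.0% had their highest group mean in the young fruiting body and 50.2% their lowest in the primordium, against 15.2% and 38.5% of all tested genes. Of the 841 stipe genes, 35.2% were highest in the primordium and 39.8% lowest in mycelium, against 22.9% and 27.4% of all tested genes. Highest in the primordium were 3.59% of cap genes, and lowest in the primordium were 9.27% of stipe genes, against 22.9% and 38.5%. Few genes of either class were silent before fruiting bodies matured. Under 1 CPM of the library total in every primordium library were 6.38% of cap genes and 2.02% of stipe genes, against 15.5% of all tested genes, and in every mycelium library 1.35% of cap genes and 1.43% of stipe genes, against 8.26%. Genes with a mean under 1 CPM in caps and stipes were also seldom called, at 0.558%.

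**Figure D5:**
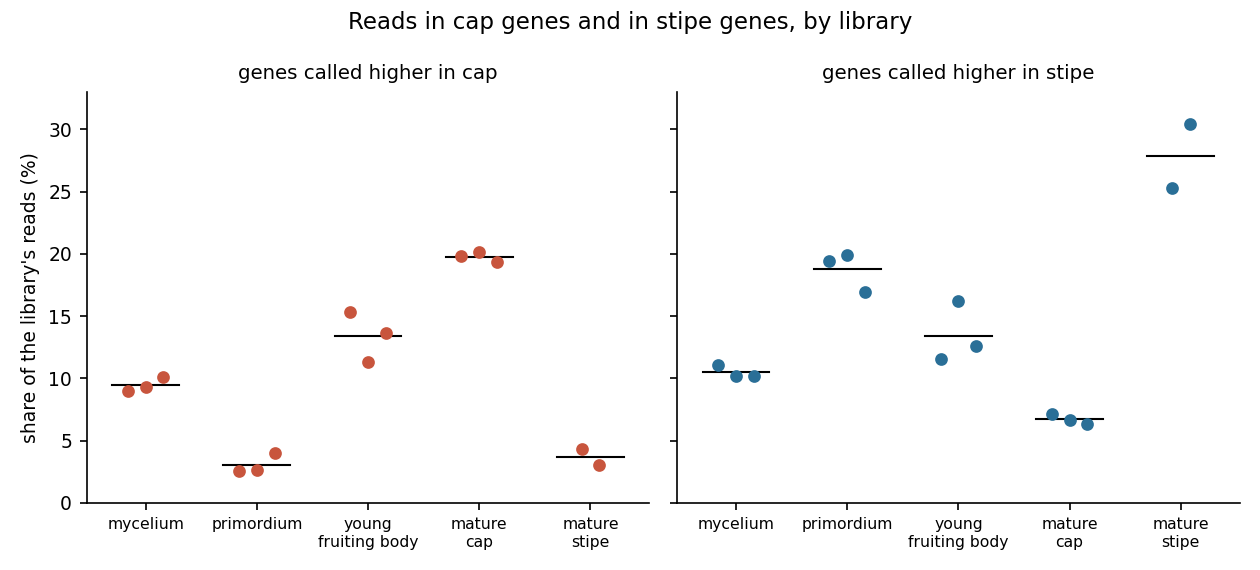
Share of each library's reads, in percent, that fell on the genes called higher in cap (left panel) and higher in stipe (right panel), 1 point per library with the group mean as a line. Cap genes take 19.3% to 20.1% in caps and 3.01% to 4.35% in stipes, and stipe genes take 6.37% to 7.14% in caps and 25.3% to 30.4% in stipes.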

How the data were processed

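Per the labels' protocols, polyadenylated RNA went into libraries with a TruSeq v2 kit, which does not mark strand, so reads of overlapping antisense genes cannot be told apart. Per the file headers, the authors' table of each library lists 17139 gene models with 2 read counts (total and unique), RPKM and TPM, each listed as a region of its own. The deposited counts are whole numbers, and the deposited RPKM follow from them in 100% of values, within 0.1%; the deposited TPM were not used. A deposited matrix of log2 values for 15477 genes equals log2 RPKM after TMM scaling with 0.5 reads added. Tools named in the submitters' processing notes are limma 3.18.13, edgeR 3.4.2 and R 3.0.2. For the genome build and the mapper, a name is not given in the sources used here.

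Total counts were tested with edgeR 4.0.16 (R 4.3.3; TMM, filterByExpr, quasi-likelihood test, Benjamini-Hochberg adjustment). All 14 libraries entered 1 fit of group means with 9 residual degrees of freedom, so the 2 stipes share the spread of the other groups. Calls needed an adjusted p under 0.05 and a 2-fold difference. Standard errors are the log2 difference over the square root of F. The procedure was also run on simulated counts, in which a gene had the same spread in all groups. That run is not used as support for the calls. The 1580 untested gene models reached at most 6.80 CPM in a cap or stipe. Of called genes, 2.71% had under 95% unique reads, against 5.21% of those tested. Single values per library were compared by an exact permutation test. Named genes are the 2 called genes in each direction with the largest difference among those with no overlap, a mean of at least 20 CPM in the higher tissue and at least 95% unique reads. The genes, classes and alternatives were chosen with earlier results of these data known. Alternatives were DESeq2 1.42.0 (size factors, test), library size alone, no filter, limma 3.58.1 (voom, and limma-trend on log2 RPKM plus 1 or plus 0.1, and on the deposited matrix), unique reads, fits of 5 or 11 libraries, other fold thresholds, each library left out, and, added after seeing the data, separate fits of the mature and the earlier libraries.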

Additional observations from a re-analysis of the deposited data

How the results depend on the processing

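Of 54 recomputed counts of called genes, 41 were within a factor of 1.5 of the reported one. A 4-fold threshold gave 802 called genes, 487 higher in cap and 315 in stipe. Limma-trend on log2(RPKM + 1) called 1814 genes higher in cap. Leaving out 1 library gave 278 to 1617 called genes, 76 to 1017 higher in cap and 202 to 600 higher in stipe, and where a stipe was left out the spread of the lone stipe was taken from the other groups. Genes of at least 16-fold higher in cap numbered 84 by DESeq2 and 17 without stipe 4, against 54, and those higher in stipe numbered 31 by limma-trend on log2(RPKM + 1), 34 without cap 3 and 26 without stipe 4, against 54. At 10 CPM, 2 genes were restricted to cap and 2 to stipe, in place of 0 and 0; with CPM after TMM or unique reads both stayed at 0. The median change of stipe genes, young fruiting body minus primordium, turned to 0.14 in limma-trend on log2(RPKM + 1), where that of all tested genes was 0.55. Of 190 recomputed values of the gene models named, 28 lost the call and 0 gained one. None of the 174 values of called models turned direction, and 2 of the 16 of 809792, which was not called, did (0.00 without cap 1 and 0.26 without cap 2). The causes were not tested. No paired analysis was possible because cap and stipe share only replicate number 1. With 2 stipes of 35.3 and 21.5 (in units of 1e6) reads, 73.6% of tested genes were neither called nor held inside 2-fold.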

Other observations

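Some genes were read in one library and not in another of the same tissue. Counting genes with at least 20 CPM of the library total in one library and no read in the other, each ordered pair of caps had 0 to 20 such genes and the stipes had 6 on in stipe 1 and 0 on in stipe 4. Pairs of a cap and a stipe had 0 to 17 on in the cap and 0 to 21 on in the stipe, so the counts within caps and between tissues overlapped. Of the 165 tested genes without a read in either stipe, 10 reached 20 CPM in a cap, and all 10 were under 1 CPM in another cap. Of these 10 genes, 0 were called. Of the 90 without a read in any cap, 4 reached 20 CPM in a stipe, and all 4 were under 1 CPM in the other stipe. Of these 4 genes, 3 were called, so some calls of stipe genes rest on reads of 1 stipe. Gene model 809792, chosen after its values were seen as the gene above 1000 CPM with the widest range between caps, had 3066, 4.62 and 15620 CPM in caps and 6640 and 9146 CPM in stipes. It stood at 5152 to 8043 CPM in young fruiting bodies, 78.5 to 925.1 CPM in primordia and at most 0.156 CPM in mycelia. Its log2 difference of -0.34 ± 1.59 (SE), cap minus stipe, was not called (edgeR adjusted p = 0.93), nor was it without cap 2 (0.26, adjusted p = 0.928). The size of the estimate depended on the method. It was -3.79 by limma-voom and -3.69 by limma-trend on the deposited matrix. On log2 RPKM plus 1 and plus 0.1, limma-trend gave -3.45 and -3.49. Without cap 3 the edgeR estimate was -2.36, and the DESeq2 test gave -0.37. None of these was called.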
